A study of Mus musculus with 2 samples.

Results

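The myeloid lineage transcription factors are the genes whose products set haematopoietic progenitors on the granulocyte and monocyte path: Cebpa, Cebpb, Cebpd and Cebpe of the C/EBP family, Spi1, which encodes PU.1, Irf8 and Gfi1. They were taken by gene name, as all probe sets annotated to these 7 genes. This gave 6 probe sets, 1 each for Cebpa, Cebpb, Cebpd, Spi1, Irf8 and Gfi1, of 12422 probe sets besides controls, and 6 of the 8251 genes that a probe set names alone. Cebpe was not analysed here.

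RNA was measured on Affymetrix mouse expression arrays in 2 samples of bone marrow cells sorted as Lin-c-kit+Sca1+, that is, cells without antigens of mature blood lineages that carry the receptor Kit and the antigen Sca-1. This sort enriches for haematopoietic stem cells and multipotent progenitors. The samples, numbered 1 and 2 in their titles, form 1 group. The labels give no strain, genotype, age or treatment, nor whether separate animals or sorts were used, so the spread between the samples may be technical. The differences below are log2 signal in sample 1 minus log2 signal in sample 2, and with 1 group of 2 samples no test was possible and no p-value is given. In a sorted population a lower signal cannot be told apart from fewer cells that express the gene.

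C/EBP factors are basic leucine zipper proteins that bind DNA as dimers. C/EBP-alpha is required for stem and multipotent cells to form granulocyte and monocyte progenitors, and PU.1, an Ets family factor, acts with it on many genes of myeloid receptors and granule proteins. C/EBP-beta and C/EBP-delta are induced by cytokines and inflammatory signals, Irf8 pairs with PU.1 and favours monocytes and dendritic cells over neutrophils, and Gfi1 is a zinc finger repressor that favours neutrophils and restrains the cycling of stem cells.

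RefSeq promoter windows of GRCm38.p6, 250 bases before to 50 after an annotated start, were found for 4 of the 7 genes: Cebpa, Cebpb, Irf8 and Gfi1. They are shown because Cebpa and Cebpb, 2 members of 1 family, differed between the samples in opposite directions, and because Gfi1 is known to repress Irf8. Irf8 and Gfi1 have a window at each of 2 annotated starts, of which the more upstream one is printed. Capitals mark the words searched for on both strands: TTGCNNAA for C/EBP, GAGGAA for PU.1, GAAANNGAA for IRF factors, AAATCAC for Gfi1, TATAAA for the TATA box and TGACG, the half-site of the factor CREB. None of these words overlapped another in the printed windows.
Cebpa, chr7:35119043-35119342, plus strand: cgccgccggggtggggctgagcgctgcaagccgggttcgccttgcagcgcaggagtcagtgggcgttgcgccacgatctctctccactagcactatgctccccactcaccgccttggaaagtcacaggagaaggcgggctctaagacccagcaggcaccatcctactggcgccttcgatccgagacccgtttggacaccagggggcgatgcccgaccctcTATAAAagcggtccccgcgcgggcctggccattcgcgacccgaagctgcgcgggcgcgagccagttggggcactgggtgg
Cebpb, chr2:167688665-167688964, plus strand: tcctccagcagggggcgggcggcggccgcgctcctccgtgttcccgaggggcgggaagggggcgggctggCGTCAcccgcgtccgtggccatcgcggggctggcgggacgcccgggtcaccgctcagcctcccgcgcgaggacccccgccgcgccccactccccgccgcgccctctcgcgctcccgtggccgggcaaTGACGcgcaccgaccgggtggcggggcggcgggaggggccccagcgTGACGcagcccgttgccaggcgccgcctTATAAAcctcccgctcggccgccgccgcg
Irf8, chr8:120736108-120736407, plus strand: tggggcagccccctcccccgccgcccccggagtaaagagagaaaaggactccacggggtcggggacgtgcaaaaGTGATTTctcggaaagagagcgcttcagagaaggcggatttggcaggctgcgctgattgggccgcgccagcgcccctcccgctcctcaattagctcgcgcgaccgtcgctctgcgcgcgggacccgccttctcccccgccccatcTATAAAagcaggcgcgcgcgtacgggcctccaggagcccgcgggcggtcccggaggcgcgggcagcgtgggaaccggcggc
Gfi1, chr5:107725756-107726055, minus strand: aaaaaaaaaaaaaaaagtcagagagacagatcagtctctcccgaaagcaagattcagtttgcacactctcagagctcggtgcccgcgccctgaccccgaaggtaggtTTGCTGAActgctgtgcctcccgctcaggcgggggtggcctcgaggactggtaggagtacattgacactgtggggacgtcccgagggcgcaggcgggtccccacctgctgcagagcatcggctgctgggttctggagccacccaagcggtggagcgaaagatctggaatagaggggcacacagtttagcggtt

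The Cebpa window held TATAAA 30 bases before the start and the Irf8 window 31 bases before it. The Cebpb window held TGACG 53 and 7 bases before the start, its reverse complement CGTCA 180 bases before it, and TATAAA at 21 bases after it. TATAAA occurs in 13.62% and TGACG in 20.81% of all 32851 RefSeq windows of this length. The Irf8 window held the Gfi1 word in reverse, GTGATTT, 176 bases before the start, a word in 3.2% of all windows. The Gfi1 window held the C/EBP word TTGCTGAA 143 bases before the start, in 10.8% of all windows. The PU.1 word, in 28.28% of all windows, and the IRF word, in 8.56%, had no match in any of the 6 windows of these genes. G and C made up 67.3% of the printed window of Cebpa, 80.7% of that of Cebpb, 70.0% of that of Irf8 and 58.0% of that of Gfi1. These shares were not compared with those of all windows. A match is a description of the letters and not a bound site.

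The deposited signals were quantile-normalized between the arrays, and a probe set was called above the control level when it exceeded, in both samples, the 90th percentile of the 15 bacterial control probe sets of the array. That level was 12.1 in sample 1 and 8.91 in sample 2. For differences, signals under 20 were set to 20, so a fold against such a signal is a lower bound. The sorted population's own markers were above the control level for 9 of 11 measured genes, 2 higher in sample 1 and 6 higher in sample 2 (3 and 6 under the deposited scaling), with a median difference of -0.38. Kit had 25.8 and 19.4 in samples 1 and 2, Cd48 101 and 44.9, the receptor gene Flt3 137 and 322, and Lmo2 146 and 165, and Sca-1 was not analysed here. Meis1 was at least 2.02-fold higher in sample 2. Mature lineage antigens were above the control level for 2 of 10, Ms4a1 with 28.3 and 43.5 and Ly6g with 14.1 and 9.25. The array's own 3′ to 5′ control ratios, a sign of RNA length after the 2 rounds of amplification, were 10.2 in sample 1 and 27.1 in sample 2 for Actb, 10.9 and 19.2 for Gapdh, and 9.61 and 6.75 for Tfrc. The 3′ bias of the 2 strongest controls was thus larger in sample 2, and its part in the differences below was not tested.

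All 6 measured myeloid factor genes passed the control level in sample 1 and in sample 2 alike. The same was true of 57.0% of all 8251 genes, so this count by itself is read only as presence of signal. A stricter level was set by the 54 probe sets of genes of other organs such as liver, muscle and brain, whose 90th percentile was 32.7 in sample 1 and 19.5 in sample 2. The strongest of these genes were Tnp1 (93.7 and 244), Gh (104 and 58.6) and Crybb2 (88.3 and 77.1), and the most different was Lor (66.0 and 13.4). Cebpa, Spi1 and Irf8 were above it in both samples, as were 32.2% of all genes. Cebpb and Cebpd were above it only in sample 2, and Gfi1 in neither. Kit, the receptor gene of the sort, was not above it in either sample (25.8 and 19.35). A signal under this level is therefore not read as absence of the RNA. Thus 3 of the 6 genes exceeded the 90th percentile of the organ-gene probe sets in both samples, a stricter mark than exceeding most of them.

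Cebpa, the gene of the factor that opens the granulocyte and monocyte path, was higher in sample 1. Its probe set, 98447_at, read 141 in sample 1, against 54.8 in sample 2, with a mean of 6.46 ± 0.96 on the log2 scale (SD, n = 2). Sample 1 was high and sample 2 low, 2.57-fold apart, with a log2 difference of 1.36. Of the 4707 genes above the control level 5.12% were as far apart or farther in that direction. Both signals stood well above the control level, 11.7 times it in sample 1 and 6.15 times it in sample 2.

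Cebpb and Cebpd, the 2 family members that inflammatory signals induce, went the other way. Cebpb, by probe set 92925_at, read 17.6 in sample 1, which is under the floor of 20, and 60.9 in sample 2 (5.13 ± 1.14, SD, n = 2, with the floor). It was at least 3.05-fold higher in sample 2, and 3.0% of genes were as far apart or farther in that direction. Cebpd, by probe set 160894_at, read 22.8 in sample 1, against 62.8 in sample 2 (5.24 ± 1.03, SD, n = 2), 2.75-fold higher in sample 2. The share of genes as far apart or farther in that direction was 3.80%. In sample 1 both genes lay less than 2 times above the control level (1.46 and 1.89 times), while in sample 2 they lay at 6.84 and 7.04 times that level.

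The 3 C/EBP genes thus differed unequally between the samples, and a common scale factor on either array cancels in that comparison. In the deposited values Cebpa had 145.6 and 52.9, Cebpb 18.5 and 59.0, and Cebpd 23.8 and 60.8 in samples 1 and 2. From these values the fold of Cebpa, sample 1 over sample 2, exceeded that of Cebpb by 8.78 times and that of Cebpd by 7.03 times. The folds of Cebpb and Cebpd, both towards sample 2, differed by 1.25 times. With quantile normalization and the floor, the fold of Cebpa exceeded that of Cebpb by at least 7.82 times and that of Cebpd by 7.07 times.

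Spi1 and Irf8, whose products bind composite sites together, were both higher in sample 2 by less than 2-fold. Spi1, by probe set 102641_at, read 70.9 in sample 1, against 99.5 in sample 2 (6.39 ± 0.35, SD, n = 2), a log2 difference of -0.49. In that direction 22.2% of genes were as far apart or farther. Irf8, by probe set 98002_at, read 128.4 in sample 1, against 226 in sample 2 (7.41 ± 0.58, SD, n = 2), a difference of -0.82. As far apart or farther in that direction were 13.1% of genes. The SDs of Spi1 and Irf8 between the samples were both under 0.59, that of Irf8 only just, while those of Cebpa, Cebpb and Cebpd were above it. This value, called the replicate SD here, pools the same differences over the genes above the control level, floored ones included. The comparison thus restates the sizes of the differences.

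Gfi1, the repressor gene, was close to the floor. Its probe set, 103259_at, read 23.2 in sample 1, against 18.7 in sample 2 (4.43 ± 0.15, SD, n = 2, with the floor). It was at least 1.16-fold higher in sample 1. As far apart or farther were 36.8% of genes in that direction and 69.7% in either direction. No difference in Gfi1 was detectable at this signal.

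**Figure D1:**
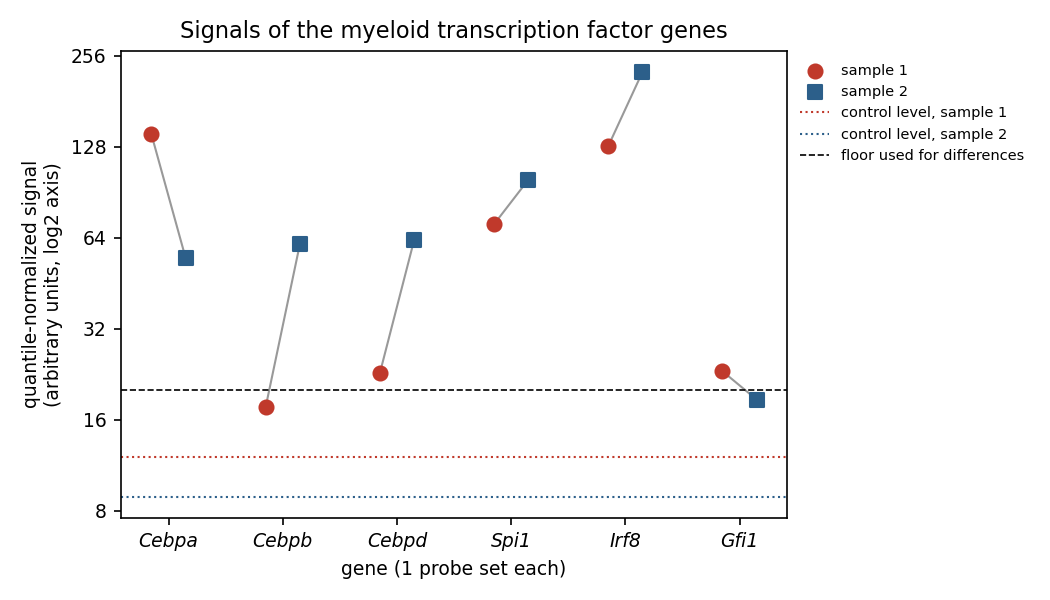
Quantile-normalized signal (arbitrary units, log2 axis) of the 6 measured genes, with sample 1 as circles at the left of each pair and sample 2 as squares at the right; dotted lines mark each sample's control level and the dashed line the floor of 20. Cebpa was higher in sample 1 (141 and 54.8), Cebpb and Cebpd were higher in sample 2, and Gfi1 lay next to the floor in both.

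By count, 1 of the 6 genes, Cebpa, was 2-fold or more higher in sample 1, where 11.0% of the 4707 genes were. Another 2, Cebpb and Cebpd, were 2-fold or more higher in sample 2, where 9.62% of the 4707 genes were. The median difference of the 6 was -0.65, with 2 higher in sample 1 and 4 in sample 2. Over all 4707 genes the median was 0. Of these genes 2219 were higher in sample 1, 2039 were higher in sample 2 and 449 were equal with the floor applied. Signals of the 6 genes are set beside those of all genes in the plot of both arrays, in which 3 of them lie outside the 2-fold lines.

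**Figure D2:**
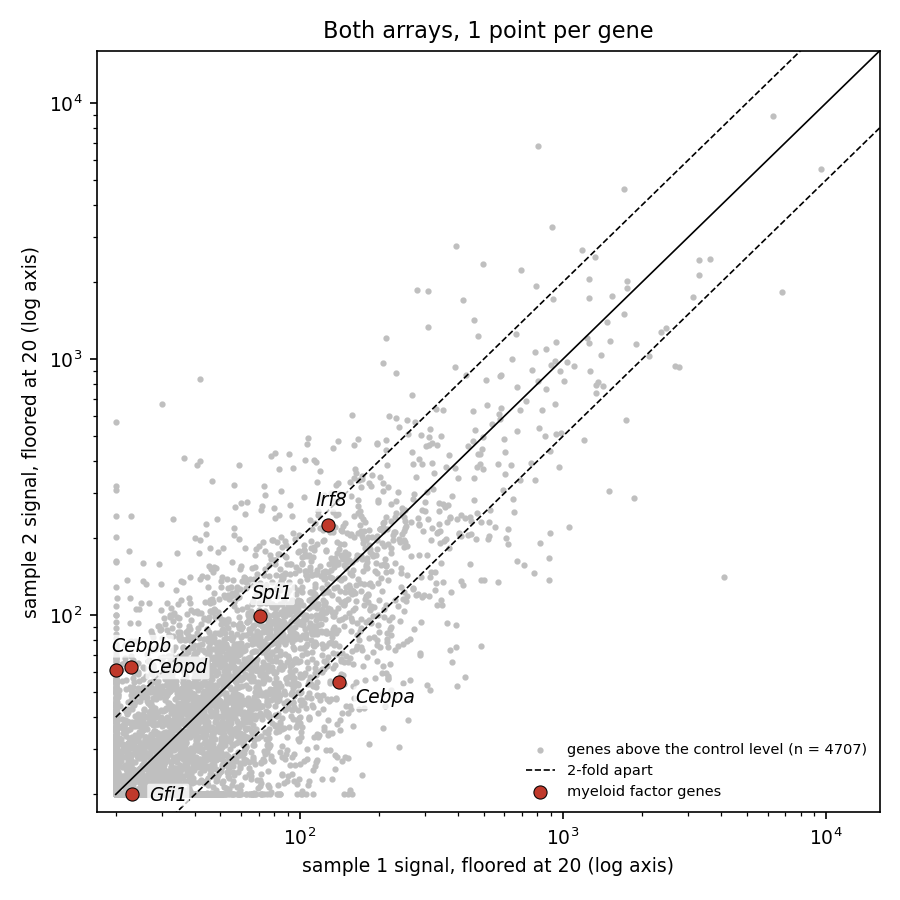
Signal in sample 1 (x axis) and in sample 2 (y axis), floored at 20 on log axes, for 4707 genes above the control level in grey and the 6 myeloid factor genes in red; the solid line marks equal signals and the dashed lines a 2-fold difference. Cebpa lies below the lower dashed line, Cebpb and Cebpd above the upper one, and Spi1, Irf8 and Gfi1 between them.

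Relatives of these factors were examined next, from lists of their families and partners. Of the 9 other basic leucine zipper genes on the array 6 passed the control level. Sample 1 had the higher signal for 1 of these and sample 2 for 3, while 2 lay under the floor in both, and without the floor the split was 3 and 3. Atf3, a stress-induced dimer partner of C/EBP proteins, was at least 12.2-fold higher in sample 2, at 12.6 in sample 1, against 244 in sample 2 (3.25 and 56.6, and 2.25 and 1.85, by its other probe sets). Atf4 had 169 and 255 and Batf 36.0 and 47.6. Cebpg, the family member without an activation domain, had 1.6 and 8.95, under the control level in sample 1. Ddit3, a dominant-negative relative of C/EBP factors, had 10.4 and 10.1 and was not above it in sample 1 either.

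Among the other interferon regulatory factor genes 5 of 6 passed the control level. Sample 1 had the higher signal for 1 and sample 2, as for Irf8, for 4, a split of 2 and 3 under the deposited scaling. Of those 4, Irf5 was nearly equal in the samples. Irf7 had 9.6 and 57.15 by its strongest probe set, under the control level in sample 1. It passed that level only by its other probe set, which went the opposite way, at 27.1 and 18.85. Irf1, a factor induced by interferon, was 3.07-fold higher in sample 2, at 33.2 in sample 1, against 102 in sample 2. Irf9, a subunit of the interferon response complex, had 123 and 147, and Irf5 35.2 and 35.7. Irf4, the nearest relative of Irf8 and like it a partner of PU.1, had 4.3 and 9.05, under the control level in sample 1.

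Of 13 other Ets family genes 6 passed the control level. Sample 1 had the higher signal for 3 and sample 2 for 1, with 2 under the floor in both, and without the floor the split was 3 and 3. Spib, which encodes the PU.1 relative of B cells and plasmacytoid dendritic cells, had 41.5 in sample 1, against 53.9 in sample 2 (8.6 and 8.25 by another probe set), and Spic, another relative, had 5.05 and 3.2. Etv4 had 120 and 92.8 (11.3 and 31.8 by another probe set), and Elf4 had 45.8 and 12.9, at least 2.29-fold higher in sample 1.

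Gfi1b, the erythroid and megakaryocyte paralog of Gfi1, had 110 in sample 1, against 80.4 in sample 2. Of 10 measured genes of Gfi1b and of corepressors and partners of Gfi1 proteins 8 passed the control level. Sample 1 had the higher signal for 4 and sample 2 for 2, and 0 of the 8 were 2-fold apart. Sin3a had 99.3 and 114, the deacetylase gene Hdac1 64.1 and 42.5, and Pias3, a Gfi1 partner, 31.7 and 62.6. The other probe sets of Pias3 went the opposite way, at 22.4 and 18.2 and at 8.95 and 4.2. The demethylase gene Kdm1a, the main corepressor of Gfi1 and Gfi1b, lay under the floor on both arrays, at 13.7 and 14.4.

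**Figure D3:**
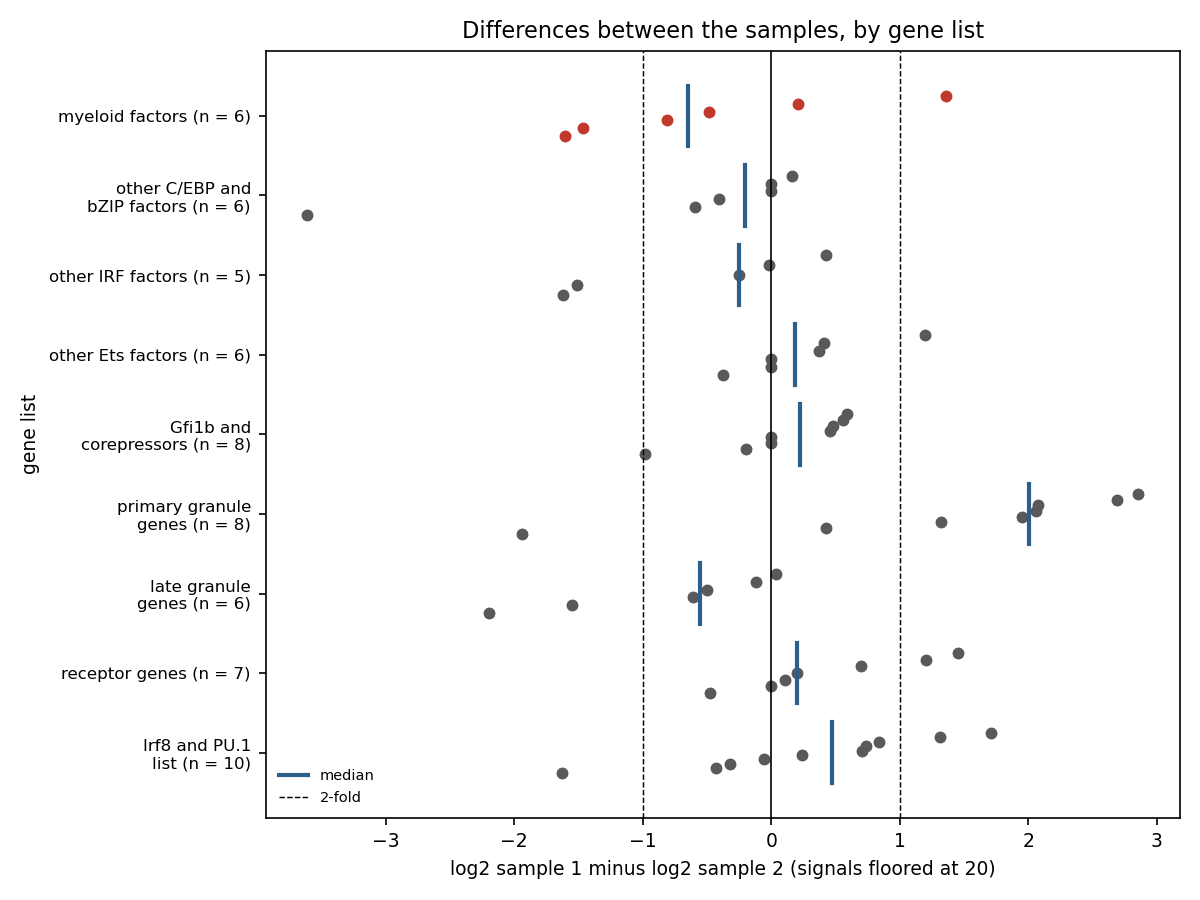
Difference between the samples (log2 sample 1 minus log2 sample 2, signals floored at 20) for each gene above the control level, 1 point per gene, by list, with the list's median as a blue bar and dashed lines at 2-fold. The 6 myeloid factor genes, in red, run from -1.61 to 1.36, and 7 of 8 genes of the primary granule list lie to the right of 0.

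Genes that these factors are known to act on were also set beside them. A list of mainly primary granule genes, many of them classical targets of C/EBP-alpha and PU.1 in promyelocytes, went in the direction of Cebpa. It also holds Hp, whose product is stored in later granules, and Hp is included in the counts and the median below. All 8 measured ones passed the control level. Sample 1 had the higher signal for 7, for 6 of them by 2-fold or more, and sample 2 for 1, with a median difference of 2.0 beside 0 for all genes. This direction was known from earlier results of the same arrays when the list was drawn up, so it is no independent evidence. Elane, the neutrophil elastase gene, was 2.49-fold higher in sample 1, at 220 against 88.4 in sample 2. Ctsg, which encodes cathepsin G, had 84.2 and 17.7, at least 4.21-fold higher in sample 1. Cst7, the gene of the protease inhibitor cystatin F, was 7.23-fold higher in sample 1 (172 and 23.8). The lysozyme gene Lyz2 had 104 and 26.9 (2.15 and 4.1 by another probe set), and the haptoglobin gene Hp 206 and 49.4. Prtn3, the proteinase 3 gene, had 459 and 342, and Mpo, the myeloperoxidase gene, 1862 and 288 by one probe set and 67.5 and 23.9 by the other. Srgn, which encodes the granule proteoglycan serglycin, went the other way, at 105 in sample 1, against 403 in sample 2.

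RefSeq windows were found for 10 of the 11 listed primary granule genes, measured here or not, with 2 starts for Srgn and 1 for each other gene. Of their 11 windows 6 held the PU.1 word GAGGAA, against 28.28% of all windows. The words of 4 genes of granule enzymes lie on the gene's own strand and stand in capitals within 40 bases of GRCm38.p6 each. They are the measured genes of the list whose windows held the word. All 4 were higher in sample 1, as were 7 of the 8 measured genes of the list. The word was chosen with the sequences in view, and a link between word and direction was not tested. Lyz2 and Cst7, also higher in sample 1, had no PU.1 word in their windows, and neither had Srgn, which was higher in sample 2. Spi1 itself, the gene of PU.1, was higher in sample 2. In Mpo, Elane and Prtn3 the word is followed by GT.
Mpo, chr11:87793543-87793582, plus strand: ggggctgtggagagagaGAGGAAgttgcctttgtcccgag
Elane, chr10:79886210-79886249, plus strand: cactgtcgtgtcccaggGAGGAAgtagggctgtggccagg
Prtn3, chr10:79879555-79879594, plus strand: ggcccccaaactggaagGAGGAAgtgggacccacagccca
Ctsg, chr14:56102768-56102807, minus strand: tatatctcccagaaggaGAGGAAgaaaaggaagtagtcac

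The word began 224 bases before the start of Mpo, with a further copy 247 bases before it, 85 bases before Elane, 95 before Prtn3 and 216 before Ctsg. The C/EBP word had a match in 3 of the 10 genes, Cst7, Lyz1 and Ms4a3. Of these Cst7, with the word 3 bases before its start, was the one measured.

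Listed late granule and calprotectin genes, known as targets of C/EBP-epsilon in maturing neutrophils, were mostly higher in sample 2, unlike the primary granule list. Hp, counted in that list and not here, was higher in sample 1. Of 9 measured 6 passed the control level, 5 with the higher signal in sample 2 and 1 in sample 1, and their median difference was -0.56. The split was 4 and 2 under the deposited scaling and 6 and 0 with median-centring. Ngp, a granule protein gene, had 60.0 in sample 1, against 275 in sample 2, and Camp, the cathelicidin gene, 91.9 and 269. S100a8, a calprotectin subunit gene, had 301 and 459, while S100a9, the other subunit gene, was nearly equal at 56.8 and 55.35. The lactoferrin gene Ltf, a defining secondary granule gene, had 8.6 and 29.3, under the control level in sample 1, and the gelatinase and collagenase genes Mmp9 and Mmp8 had signals between 2.35 and 6.05.

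Receptor genes known as targets of PU.1 and C/EBP-alpha passed the control level for 7 of 14 measured. Signals were higher in sample 1 for 5 and in sample 2 for 1, and the median difference was 0.20. Csf1r, the macrophage colony-stimulating factor receptor gene and a classical target of PU.1, had 108 in sample 1, against 39.5 in sample 2, but 34.8 and 37.4 by its other probe set. Csf3r, the granulocyte colony-stimulating factor receptor gene and a target of C/EBP-alpha, had 56.6 and 49.2 by its strongest probe set. The others gave 46.3 and 26.6, and 4.2 and 12.7. Cd14, a monocyte receptor gene, had 152 and 65.9, and Itgam, the integrin gene of mature myeloid cells, had 3.65 and 1.5, under the control level in both.

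Markers of monocytes and macrophages were mostly higher in the same sample as Cebpa. Of 12 measured 7 passed the control level, 5 with the higher signal in sample 1, 0 in sample 2 and 2 under the floor. The summed signal of all 12 was 574 in sample 1 and 255 in sample 2. Apoe had 169 and 80.3 (4.13 and 14.8 by another probe set). Adgre1, Marco, Mrc1 and Siglec1 had signals between 0.4 and 9.45 over all their probe sets, under the control level in both samples. Other macrophage markers of the list passed it by their strongest probe sets. These were Lgals3 (41.35 and 12.6), Cd68 (23.65 and 17.5), Msr1 (18.95 and 9.8) and Fcgr1 (17.05 and 18.55). Ccr2 passed it only in sample 1 (18.7 and 1.95). The part of this list in the difference of Cebpa was not tested.

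A further list held genes of phagocytes and antigen-presenting cells that Irf8 and PU.1 are known to act on, with some other Irf8 targets. Of 15 measured genes 10 passed the control level, 6 with the higher signal in sample 1 and 4, like Irf8, in sample 2. Cyba, a subunit gene of the phagocyte oxidase, had 207 in sample 1, against 63.5 in sample 2 (103 and 67.7 by another probe set), and Cst3, the cystatin C gene of dendritic cells, 551 and 222 (52.5 and 76.6 by another probe set). Ctss, the cathepsin S gene, had 74.4 and 100.1.

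Genes that Gfi1 is known to repress passed the control level for 9 of 14 measured, 3 with the higher signal in sample 1 and 5 in sample 2. Irf8 and Csf1r are among them. Socs3, a cytokine feedback gene, was at least 8.12-fold higher in sample 2, at 12.9 in sample 1, against 162 in sample 2 (2.9 and 6.6 by another probe set). Cdkn1a, the gene of a cell cycle inhibitor, had 33.5 and 75.4.

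Partners and upstream factors of the myeloid genes passed the control level for 17 of 24 measured. The higher signal was in sample 1 for 3 and in sample 2 for 12, with a median difference of -0.41 (-0.30 under the deposited scaling). Myb, which acts with C/EBP factors on granule genes, was higher in sample 1, at 490 and 232. Runx1 had 31.3 and 29.8, and its partner gene Cbfb 667 and 776 (80.1 and 77.1 by another probe set). Lyl1, a basic helix-loop-helix factor gene, had 695 in sample 1, against 2224 in sample 2. Jun, which encodes a dimer partner of C/EBP-alpha and was chosen after its values were seen, had 14.9 in sample 1, against 201 in sample 2, and Egr1 36.4 and 410. These 2 early response genes were higher in the same sample as Cebpb, Cebpd and Atf3, and the part of an early response in the differences of Cebpb and Cebpd was not tested.

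The genes with signals most like each member were sought among 76 genes of the other lists with both signals above the floor, by the Euclidean distance over the 2 log2 signals. With 2 samples, and probe sets that differ in sensitivity, this is a description of the pairs of signals only. Cebpa was nearest to Cd14 (distance 0.29), then Cd48 (0.56) and Hp (0.57). Cebpd was nearest to Pias3 (0.47), Cdkn1a (0.61) and the B cell antigen gene Ms4a1 (0.61). For Spi1 the nearest were Ctss (0.07), Tcf12 (0.40) and Junb (0.41), and for Irf8 they were Zfpm1 (0.39), Atf4 (0.43) and Lmo2 (0.49). Cebpb and Gfi1 had a signal under the floor and were left out.

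The directions of the 6 genes did not depend on how the arrays were scaled. Under the deposited scaling, median-centring, no floor and an offset of 32 added before log2, Cebpa and Gfi1 were higher in sample 1 and Cebpb, Cebpd, Spi1 and Irf8 in sample 2. The sizes depended on the treatment of low signals, as the plot of each difference under 5 settings shows. With the offset the difference was 0.99 for Cebpa, -0.91 for Cebpb and -0.79 for Cebpd, all under 2-fold.

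**Figure D4:**
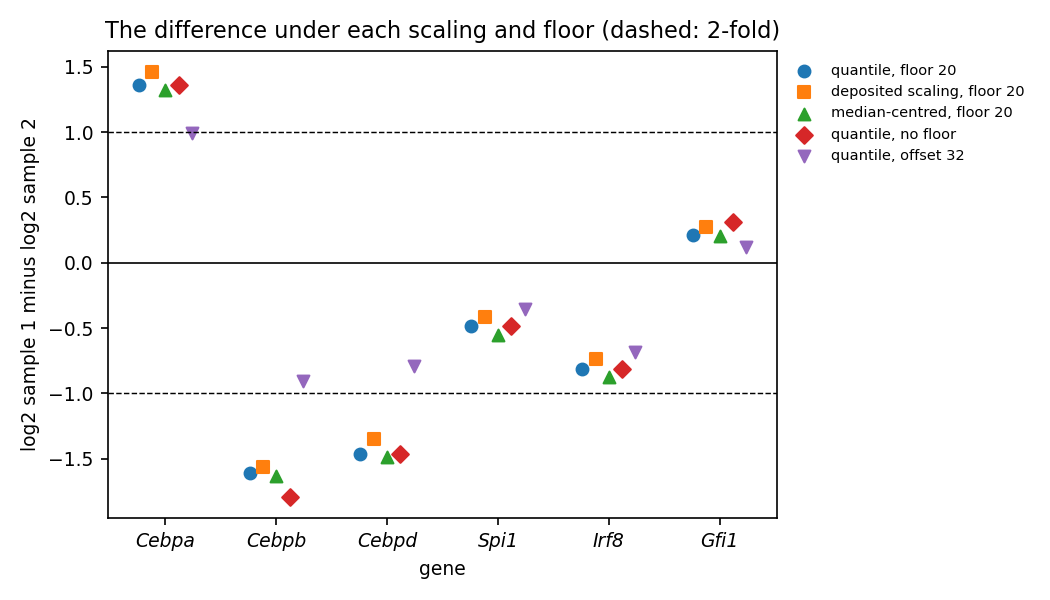
Difference between the samples (log2 sample 1 minus log2 sample 2) of each gene under 5 settings of scaling and floor, 1 marker shape per setting, with dashed lines at 2-fold. The sign was the same under all 5 settings for each of the 6 genes, and the offset of 32 gave the smallest differences.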

How the data were processed

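The deposited values were linear intensity values, 1 per probe set, in 2 samples of 1 group. Both columns had a mean of 53.944. Their summary and scaling software is not stated in these sources. Per the labels' protocols the RNA had 2 rounds of amplification. Depth is not defined for arrays, and their number, 2, limits the precision.

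The 66 control probe sets were left out of all counts. Names came from the platform annotation, where 10833 probe sets named 1 gene, 396 several and 1193 none. Both arrays were quantile-normalized in Python 3.11.15 (numpy 2.4.6, pandas 2.3.3), a step checked on simulated arrays. A gene passed the control or the organ-gene level when at least 1 of its probe sets did, and took its value from its strongest probe set over both samples. Levels of different probe sets are not comparable as amounts of RNA.

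The members and 18 further gene lists were chosen with earlier results of these data known, and the promoter words with the sequences in view. The text names every member and, from each list it describes, the 3 strongest genes and the most different one. Other genes, named for their role in the pathway, were chosen after their values were seen. Alternatives were 3 other control levels, all probe sets in place of any, each sample alone, 2 other scalings, no floor, an offset, no filter and a mean over probe sets.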

Additional observations from a re-analysis of the deposited data

How the results depend on the processing

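The count of 6 myeloid factor genes above the control level was 6 under 2 stricter bacterial levels and with the deposited scaling. It was 3 at the level of organ genes, which is a higher level by construction. Requiring all probe sets, or taking each sample alone, also gave 6 but could give nothing else. Each of the 6 genes has 1 probe set and passed in both samples. The count of 3 genes 2-fold or more apart was 3 under the deposited scaling, median-centring and no floor. The offset of 32, which shrinks differences of low signals, gave 0. Leaving out the filter and the mean over probe sets also gave 3, but for these genes neither could differ from the main setting. Of 30 recomputed differences of single genes 28 moved by less than the replicate SD, 2 moved by more, those of Cebpb and Cebpd with the offset, and 0 changed sign. A difference between the samples cannot be had from 1 sample, so it was not recomputed with either left out. No paired analysis was possible because there is only 1 group.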

Other observations

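Factors of the other blood lineages were measured in the same cells. Of 10 erythroid and megakaryocyte factor genes 9 were above the control level, 4 higher in sample 1 and 5 higher in sample 2. Klf1, the erythroid Kruppel-like factor gene, had 215 in sample 1, against 80.5 in sample 2, in the direction of Cebpa, while Zfpm1, the gene of the Gata1 cofactor Fog1, had 123 and 296, Nfe2 213 and 442, and Lmo2 146 and 165. Gata1, whose product and PU.1 oppose each other, had 37.0 and 26.9. Of 10 lymphoid factor genes 5 were above the control level, 2 higher in sample 1 and 3 higher in sample 2, with 3 and 2 under the deposited scaling. Notch1 was 7.93-fold higher in sample 2 (22.5 and 178), Lef1 was 2.03-fold higher in sample 1 (82.2 and 40.5), and Tcf12 had 75.9 and 76.3. Markers of erythroid cells passed the control level for 5 of 7 measured genes, 2 higher in sample 1 and 3 higher in sample 2. The alpha-globin gene Hba-a1 had 30.1 in sample 1, against 670 in sample 2, and the carbonic anhydrase gene Car1 had 488 and 75.9. Markers of B cells passed it for 7 of 9, 2 higher in sample 1 and 5 higher in sample 2 (3 and 4 under the deposited scaling). Ighm, measured by 16 probe sets, had 935 and 667 on the brightest, Cd79b 38.1 and 38.6, Ms4a1 28.3 and 43.5, and Igll1 19.8 and 30.9 (18.1 and 15.1 by another probe set).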
